A study of Mus musculus with 4 samples.

Results

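The collagen family was examined in single-cell RNA sequencing of mouse cells, made of 4 libraries called IgG, Ac, C and aC+C, each the only library of its group. Members were all genes whose symbol is Col, a number, a and a number. This rule found 44 of the 27998 genes in the files. The labels do not spell out the 4 group names, and give no dose, time, strain or sex. They share a donor age of 6 to 8 weeks, entered under the tag genotype. The titles name immune cells that infiltrated tumors, whereas the source and cell type fields name goblet cells, and the protocol describes goblet cells sorted by mCherry from the gut of RedMUC298trTg mice after digestion with collagenase type I. The 5 goblet cell markers looked for (Muc2, Tff3, Spink4, Fcgbp and Zg16) summed to at most 1.17 UMIs per 1000000 UMIs (counts per 1000000, CPM) in any class of cells and library. The cells were therefore called by the genes they carried and not by their label.

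Collagens are secreted proteins built from 3 chains wound into a triple helix. Fibrillar collagens such as types I, III and V form the cable-like fibrils of connective tissue, type VI forms beaded filaments around cells, and type IV forms the sheet of the basement membrane, where types XV and XVIII also reside. Fibril-associated collagens such as types XII and XIV bind to the surface of fibrils. Fibroblasts are the usual source of interstitial collagen in a tumor, endothelial cells lay down basement membrane, and tumor cells of mesenchymal type can make collagens themselves.

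Barcodes of at least 1000 UMIs (unique molecular identifiers, 1 for each captured transcript molecule) with at most 10% mitochondrial UMIs were kept as cells. IgG, Ac, C and aC+C gave 3436, 4028, 4210 and 4081 of them, and values below keep this order of libraries. Cells were divided by their UMIs of Dcn, which encodes the fibroblast proteoglycan decorin, and of Hmga2, an embryonic chromatin protein that tumor cells often express again. The 301 Dcn-only cells had at least 5 UMIs of Dcn and fewer than 2 of Hmga2. Many of them had exactly 1 Hmga2 UMI, so this class was not free of Hmga2. The 57 Hmga2-only cells had at least 2 of Hmga2 and fewer than 5 of Dcn. The 902 double-positive cells passed both thresholds, so that 902 of 959 cells with at least 2 Hmga2 UMIs also passed the one for Dcn. The remaining 14495 cells were called other. Few cells lay at the Dcn threshold (34 had 5 or 6 UMIs, 38 had 3 or 4), while 75 cells had exactly 2 Hmga2 UMIs and 299 had exactly 1.

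Library totals ran from 61519049 UMIs in IgG to 75665201 in C, and any pair of libraries shared 2 to 7 cell barcodes. Dcn-only cells made up 1.31% (95% Clopper-Pearson interval 0.957 to 1.75), 1.69% (1.31 to 2.14), 2.61% (2.15 to 3.14) and 1.91% (1.51 to 2.38) of the cells. Double-positive cells made up 3.52% (2.93 to 4.19), 4.25% (3.64 to 4.91), 5.91% (5.22 to 6.67) and 8.85% (7.99 to 9.76). Hmga2-only cells made up 0.204% (0.0819 to 0.419), 0.298% (0.154 to 0.52), 0.404% (0.235 to 0.646) and 0.515% (0.319 to 0.786). These intervals, like all intervals for single libraries here, cover counting error only. The median Dcn-only cell had 30391 UMIs, against 60979 in double-positive and 63197 in Hmga2-only cells, so a threshold of 2 Hmga2 UMIs was set on cells of unequal depth. A UMI of Ptprc, the leukocyte antigen CD45, was found in 27.9% of Dcn-only, 37.6% of double-positive and 50.9% of Hmga2-only cells, and in 16 of the 17 Hmga2-only cells of C. The 4 leukocyte markers were all detected and summed to 221 to 1140 CPM in Dcn-only, 203 to 793 in double-positive, 376 to 1297 in Hmga2-only and 5503 to 6239 in other cells. The 5 epithelial markers summed to 3.84 to 15.4, 28.5 to 42.4 and 4.93 to 185 CPM in the first 3 classes. No doublet caller was run; the part of doublets and of free RNA in the values below was not tested.

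The label of fibroblasts for cells with Dcn held only in part. The dermatopontin gene Dpt, a marker of fibroblasts, stood at 257, 18.0, 21.2 and 54.4 CPM in Dcn-only cells, and came from 22 of the 301 cells. The 9 fibroblast markers summed to 691 to 1674 CPM in Dcn-only, 130.1 to 252 in double-positive and 68.8 to 118 in Hmga2-only cells. In the other cells they summed to 265 to 396, of which 259 to 393 were Thy1, which mouse T cells also express. Lum (lumican) stood at 132 to 400.3 CPM in Dcn-only, 14.5 to 23.9 in double-positive and 0 in Hmga2-only cells of all 4 libraries. The 7 tumor-like markers summed to 3739 to 5133 CPM in Dcn-only, 5891 to 6634 in double-positive, 5992 to 6964 in Hmga2-only and 1249 to 1649.7 in other cells. The largest part of these sums was Vim, the vimentin gene of mesenchymal cells and leukocytes, at 3083 to 4212, 4484 to 4977, 4548 to 5307 and 1107.5 to 1517 CPM. Tm4sf1, a surface protein of many carcinoma and sarcoma lines, stood at 286 to 597 CPM in Dcn-only cells, at 869 to 1200 in double-positive and Hmga2-only cells and at 2.1 to 9.1 in other cells. Dcn-only cells thus carried both lists, and the classes are called here by the rule that made them.

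Stretches of upstream sequence are shown for a pair of genes on which the class comparison turns, Col3a1 as a chain that was lower in Hmga2-only cells and Col18a1 as the chain that was higher. They come from the RefSeq promoter windows of GRCm38.p6, from 250 bases before the transcription start, trimmed of bases that GENCODE places in an exon. Capitals mark matches, on either strand, to the CAAT box letters CCAAT, to the TATA box letters TATAA or to the GC box letters GGGCGG.
Col3a1 (chr1:45311288-45311537, plus strand): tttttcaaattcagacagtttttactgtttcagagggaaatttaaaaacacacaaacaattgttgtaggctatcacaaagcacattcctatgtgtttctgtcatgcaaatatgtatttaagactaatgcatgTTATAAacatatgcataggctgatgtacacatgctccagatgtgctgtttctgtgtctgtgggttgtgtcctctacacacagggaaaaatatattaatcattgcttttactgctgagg
Col18a1 (chr10:77166549-77166780, minus strand): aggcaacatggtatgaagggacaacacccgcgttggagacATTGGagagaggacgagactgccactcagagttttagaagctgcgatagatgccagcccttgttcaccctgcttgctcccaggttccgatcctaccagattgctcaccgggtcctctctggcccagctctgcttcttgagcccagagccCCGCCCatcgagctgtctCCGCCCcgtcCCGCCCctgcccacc
The stretch of Col18a1 held GGGCGG 3 times on the other strand together with 1 CCAAT, and that of Col3a1 held TATAA on both strands, overlapping in 1 place. Col18a1 has another RefSeq window inside the gene (chr10:77113706-77113955), of which 9 bases without a match remained after trimming, and it is not shown. Which start the cells used was not tested. RefSeq windows were found for 35 of the 44 members, 38 windows in all, of which 13 held CCAAT, 7 TATAA and 22 GGGCGG. Over all 32851 RefSeq windows of the same 250 bases the shares were 33.8%, 22.8% and 32.7%. These are matches of letters and not measured binding sites. Col4a1 and Col4a2 lie head to head on chromosome 8, on opposite strands, and their RefSeq starts overlap by 22 bases.

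Nearly all collagen transcripts lay in the cells with Dcn or Hmga2. The 3 classes held 98.0%, 98.1%, 97.5% and 97.9% of the collagen UMIs of the kept cells, while making up 5.03%, 6.23%, 8.93% and 11.3% of the cells. Collagen took 1.70%, 0.849%, 0.737% and 1.06% of all UMIs of the Dcn-only cells. It took 0.448%, 0.349%, 0.353% and 0.265% in double-positive cells, and 0.169%, 0.175%, 0.141% and 0.134% in Hmga2-only cells. In every library the order was the same, and the ranges of the 3 classes over the 4 libraries did not overlap. In the other cells the share was 0.0025% to 0.0046%.

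**Figure D1:**
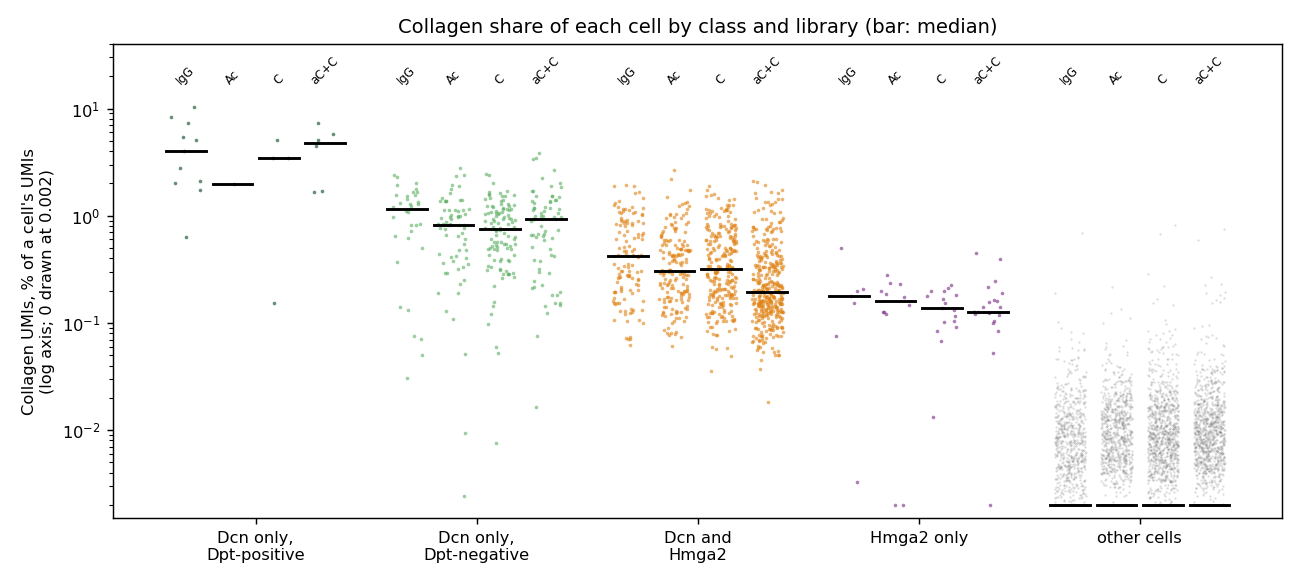
Share of each cell's UMIs that belong to collagen genes (vertical axis, percent, log scale, 0 drawn at 0.002), for the Dcn-only cells with and without a Dpt UMI, the double-positive (Dcn and Hmga2), Hmga2-only and other cells of the 4 libraries; each dot is 1 cell and the bar is the median. The medians fall from Dcn-only to double-positive to Hmga2-only cells in each library, and the 22 Dpt-positive cells reach 10.4%.

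Of the 44 members, 43 had a UMI in the kept cells; Col25a1 had 0. Described below are the 18 members with at least 200 UMIs over the 3 classes, together with Col4a4, Col15a1 and Col23a1, which stood higher in a group of the other cells than in Dcn-only cells. The other 23 had at most 170 UMIs in the 3 classes, and 10 members had none there. By type, the kept cells held 176718 UMIs of the 11 fibrillar genes, 75041 of the 7 beaded-filament genes, 44617 of the 9 basement membrane genes, 2651 of the 9 fibril-associated genes, 1061 of the 3 short-chain genes and 180 of the 4 transmembrane genes. Col3a1, Col1a1 and Col6a1 alone gave 56.2% of the collagen UMIs of the 3 classes. Since 3' counting gives 1 count per molecule whatever its length, these shares are shares of transcript molecules captured.

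The make-up of the collagen pool differed between the classes. Fibrillar genes gave 62.2% to 77.9% of the collagen UMIs in Dcn-only cells, 53.4% to 58.1% in double-positive cells and 45.2% to 51.7% in Hmga2-only cells. Basement membrane genes went the other way, with 4.29% to 9.58%, 13.0% to 20.5% and 25.9% to 28.3%. Neither set of ranges overlapped between the classes. The beaded-filament share was 16.2% to 27.7%, 24.2% to 28.4% and 18.8% to 27.2%, and these ranges did overlap. All are shares of a collagen level that fell from Dcn-only to double-positive to Hmga2-only cells. A larger share is therefore not by itself a higher level.

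**Figure D2:**
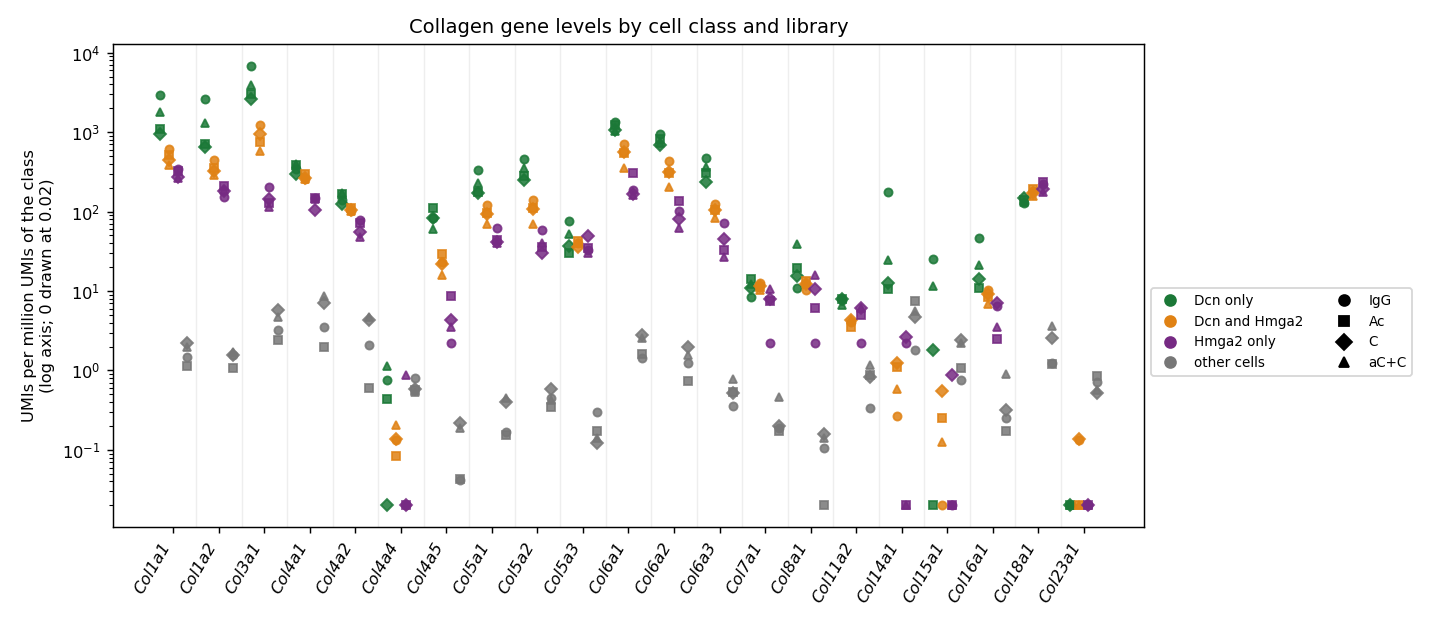
Level of the 21 described collagen genes in CPM of the class (vertical axis, log scale, 0 drawn at 0.02); color is the class of cells and the shape of the point is the library. Col3a1 goes from 2580 to 6806 in Dcn-only cells down to 115 to 206 in Hmga2-only cells, whereas Col18a1 stands at 128 to 234 in all 3 classes.

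Whether collagen genes differed between Hmga2-only and Dcn-only cells was tested with edgeR on UMIs summed per library and class, 8 sums in all with the library as a block, over 8717 genes that passed the filter on low counts. Of the 44 members 17 passed this filter. Col18a1 was higher in Hmga2-only cells, 14 members were lower, and Col5a3 and Col7a1 were not called. Over all genes tested 18.4% were called higher and 17.7% lower. Of the 17, Col4a5, Col7a1, Col8a1, Col14a1 and Col16a1 reached the minimum of this filter (10 UMIs at the median depth) in all 4 sums of Dcn-only cells but not of Hmga2-only cells, so the filter favored a lower call for them. Of the 12 members that reached it in all 8 sums, 10 were lower and 1 higher, beside 16.5% lower and 19.7% higher of 6587 such genes. Their median log2 difference was -2.42, beside 0.005 over those genes. No label says that the libraries are separate animals, so the p-values measure the spread between these 4 libraries.

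When the 902 double-positive cells were counted with the Hmga2-only cells, 19 members passed the filter, of which Col18a1 was called higher and 15 lower, with Col5a3, Col7a1 and Col9a3 not called. There 18.9% of 11294 genes were called higher and 18.9% lower. Without the Dpt-positive cells as well, 18 members were tested, 1 was called higher and 14 lower, beside 18.8% and 18.7% of 11232 genes. In both fits 17 members reached the minimum in all 8 sums, with a median of -1.26 and -1.02.

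Among the fibrillar genes, Col3a1 encodes the single chain of type III collagen, found in soft and healing tissue (chr1:45311538-45349706, GRCm38, plus strand). It stood at 6806, 2986, 2580 and 3870 CPM in Dcn-only cells. In double-positive cells it stood at 1236, 752, 933 and 578, and in Hmga2-only cells at 206, 129, 144 and 115. Every library of 1 class lay above every library of the next. The log2 difference between Hmga2-only and Dcn-only cells was -4.68 ± 0.15 (SE; edgeR adjusted p = 1.67e-10), a 25.6-fold lower level, and -1.98 ± 0.13 with double-positive cells counted as Hmga2-positive and Dpt-positive cells left out (edgeR adjusted p = 5.15e-06).

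Col1a1 and Col1a2 encode the 2 chains of type I collagen, the main protein of fibrils in skin, tendon and bone. Col1a1 (chr11:94936224-94953042, plus strand) stood at 2975, 1097, 951 and 1771 CPM in Dcn-only cells. It stood at 616, 508, 448 and 388 in double-positive cells and at 346, 328, 275 and 267 in Hmga2-only cells. The 3 classes did not overlap, and the gap between them was narrower than for Col3a1. The log2 difference was -2.31 ± 0.20 (edgeR adjusted p = 1.26e-06).

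Col1a2 (chr6:4504814-4541544, plus strand) stood at 2615, 699, 644 and 1302 CPM in Dcn-only cells. It stood at 445, 351, 322 and 292 in double-positive and at 153, 212, 181 and 189 in Hmga2-only cells. Dcn-only cells of IgG were the highest, more than 3 times those of Ac and C. The log2 difference was -2.53 ± 0.28 (edgeR adjusted p = 1.34e-05).

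The balance between these chains differed by class. Over the 4 libraries there were 2.19 to 2.72 Col3a1 UMIs for each Col1a1 UMI in Dcn-only cells, 1.48 to 2.08 in double-positive cells and 0.395 to 0.595 in Hmga2-only cells. Thus Col3a1 exceeded Col1a1 in the first pair of classes and was below it in the Hmga2-only cells of every library. In barcodes of 1 to 50 UMIs, which hold free RNA, the ratio was 1.90 to 2.73, close to that of the Dcn-only cells. The ratio of Col1a1 to Col1a2 was 1.14 to 1.57 in Dcn-only, 1.33 to 1.45 in double-positive and 1.42 to 2.26 in Hmga2-only cells, with overlapping ranges.

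The type V genes, whose chains start fibrils and set their width, followed in part. Col5a2 stood at 459, 284, 250.1 and 356 CPM in Dcn-only cells, and at 59.0, 35.8, 29.7 and 39.7 in Hmga2-only cells. Its log2 difference was -3.04 ± 0.13, and that of Col5a1 was -2.23 ± 0.15 (edgeR adjusted p = 4.29e-09 and 1.26e-07). Col5a3 behaved differently. It stood at 75.3, 30.3, 36.7 and 52.9 in Dcn-only, 39.7, 42.6, 35.5 and 39.9 in double-positive, and 32.8, 34.5, 49.8 and 30.0 in Hmga2-only cells. These ranges overlapped, and the log2 difference of -0.26 ± 0.23 was not called (edgeR adjusted p = 0.423). Its sign turned to 0.03 when the Dpt-positive cells were left out. Col11a2, a cartilage chain, stood at 6.75 to 7.90 CPM in Dcn-only and 3.54 to 4.35 in double-positive cells, and passed the filter only in the fit that counted double-positive cells, where it was lower by a log2 difference of -0.85 ± 0.20 (edgeR adjusted p = 0.0114).

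Of the beaded-filament genes, Col6a1, Col6a2 and Col6a3 encode the 3 common chains of type VI collagen, which links cells to the surrounding matrix. Col6a1 stood at 1343, 1227, 1074 and 1038 CPM in Dcn-only cells. It stood at 705, 550.03, 565 and 353 in double-positive cells and at 186, 305, 164 and 161 in Hmga2-only cells. Unlike type I and III genes, Col6a1 varied little between the Dcn-only cells of the 4 libraries, and the 3 classes did not overlap. The log2 differences were -2.53 ± 0.15 for Col6a1, -3.08 ± 0.15 for Col6a2 and -2.99 ± 0.18 for Col6a3 (edgeR adjusted p = 6.59e-08, 1.74e-08 and 8.53e-08). All 3 chains were thus called lower.

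Of the basement membrane genes, Col4a1 and Col4a2 encode the chains of the type IV network found in most tissues (chr8:11198423-11312826, minus strand, and chr8:11312805-11449287, plus strand). Col4a1 stood at 346, 381, 298 and 395 CPM in Dcn-only cells. It stood at 260, 294, 261 and 257 in double-positive and at 147, 149, 106 and 142 in Hmga2-only cells. The spread between libraries was narrow, and no library of 1 class reached the next. The log2 differences were -1.38 ± 0.11 for Col4a1 and -1.26 ± 0.16 for Col4a2 (edgeR adjusted p = 1.11e-06 and 3.57e-05), a 2.60-fold and 2.39-fold lower level. Col4a1 UMIs were 2.27 to 2.49 times those of Col4a2 in Dcn-only cells, 2.49 to 2.63 times in double-positive cells and 1.86 to 2.93 times in Hmga2-only cells, and the Hmga2-only range included both others.

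Col4a5, an X-linked type IV chain of kidney and other epithelial basement membranes, stood further apart. It stood at 83.7, 111, 83.1 and 60.8 CPM in Dcn-only cells, 22.9, 29.2, 22.1 and 15.99 in double-positive cells and 2.19, 8.63, 4.37 and 3.53 in Hmga2-only cells. Each class lay clear of the next. Col4a5 reached the filter minimum in 1 of the 4 Hmga2-only sums, so the difference of that fit is not given. With double-positive cells counted as Hmga2-positive and Dpt-positive cells left out, it reached the minimum in all sums. The log2 difference there was -2.04 ± 0.08 (edgeR adjusted p = 1.39e-06). Col7a1, the anchoring fibril chain under epithelia, stood at 8.45 to 14.0 CPM in Dcn-only, 10.4 to 12.7 in double-positive and 2.19 to 10.6 in Hmga2-only cells, and was not called (log2 -0.58 ± 0.31, edgeR adjusted p = 0.164).

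Col18a1, whose chain carries the endostatin fragment at its end, was the 1 member called higher in Hmga2-only cells (chr10:77052178-77166548, minus strand). It stood at 128, 140, 147 and 133 CPM in Dcn-only cells. It stood at 183, 194, 169 and 158 in double-positive cells and at 223, 234, 190 and 176 in Hmga2-only cells. In each library the level went up from Dcn-only to double-positive to Hmga2-only cells, and the Dcn-only range did not overlap with the other ranges. The log2 difference was 0.59 ± 0.13 (edgeR adjusted p = 0.00251), a 1.502-fold higher level. It was 0.38 ± 0.08 with double-positive cells counted as Hmga2-positive (edgeR adjusted p = 0.00505) and 0.30 ± 0.07 without Dpt-positive cells as well (edgeR adjusted p = 0.0099). When double-positive cells were counted as Dcn-positive instead, it was 0.32 and no longer called (edgeR adjusted p = 0.0772).

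Cell by cell, the fibrillar and type VI genes varied together. Spearman's rho between levels per cell was computed within each library, over 121 to 361 double-positive cells that share a library and its free RNA, and is a description only. It was 0.91 to 0.95 for Col6a1 with Col6a2, 0.84 to 0.90 for Col3a1 with Col6a1, and 0.77 to 0.87 for Col1a1 with Col1a2. For Col4a1 with Col4a2 it was 0.58 to 0.67, and for Col1a1 with Col4a1 0.27 to 0.38. With Col18a1 it was lower for Col4a1 and Col3a1 (-0.13 to 0.07 and 0.06 to 0.22) than for Col6a1 and Col1a1 (0.20 to 0.32 and 0.26 to 0.39). These gaps were not seen in Dcn-only cells without a Dpt UMI, 34 to 106 to a library. There rho was 0.41 to 0.70 for Col1a1 with Col4a1, overlapping the 0.55 to 0.64 for Col4a1 with Col4a2. With Col18a1 it was -0.05 to 0.33 for Col4a1 and -0.04 to 0.46 for Col1a1 in these cells, which also overlapped.

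The fibril-associated and short-chain genes were scarce. Col16a1 stood at 10.97 to 46.1 CPM in Dcn-only and 2.47 to 6.99 in Hmga2-only cells. It passed the filter of that fit through the Dcn-only sums alone, so that difference is not given. With double-positive cells counted as Hmga2-positive and Dpt-positive cells left out, Col16a1 passed in both classes. Its log2 difference there was -0.87 ± 0.20 (edgeR adjusted p = 0.00789). Col8a1, a short-chain collagen of vessel walls and of the cornea, stood at 10.8 to 39.4 in Dcn-only and 2.19 to 15.9 in Hmga2-only cells. Col8a1 was called lower, and the call was lost without the library aC+C (edgeR adjusted p = 0.0535). It reached the filter minimum in 2 of the 4 Hmga2-only sums, so the filter favored this call and the difference is not given. With double-positive cells counted as Hmga2-positive and Dpt-positive cells left out, Col8a1 reached the minimum in all sums. Its log2 difference there was -0.53 ± 0.17 (edgeR adjusted p = 0.0314). Col14a1, which binds to fibrils, stood at 178, 10.5, 12.5 and 24.8 in Dcn-only cells and at 0 to 2.62 in Hmga2-only cells, where 2 libraries had none. It passed the filter through the Dcn-only sums alone, so its difference is not given.

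The genes that modify, process and bind collagen were taken as 6 lists, from each of which the 3 genes with the most UMIs are named. Of 20 genes for modification and folding 16 were tested in Hmga2-only against Dcn-only cells, and 13 were lower. Among them were Serpinh1, the collagen chaperone HSP47 (log2 -0.65 ± 0.13), and Ppib, a prolyl isomerase (-0.31 ± 0.10, edgeR adjusted p = 0.033). P4hb, a subunit of prolyl hydroxylase with other duties in folding, had a difference of -0.11 ± 0.11 and was not called. Of 13 genes for processing and crosslinking 5 were tested and 4 were lower, among them the collagen-binding Sparc (-1.76 ± 0.18), the crosslinking enzyme Loxl1 (-1.66 ± 0.28) and Pcolce (-0.76 ± 0.13), an enhancer of propeptide removal. None of the genes on these lists was called higher in this fit, in which 18.4% of all genes were called higher and 17.7% lower.

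Of 13 genes for degradation and uptake 7 were tested and 4 were lower, among them the membrane collagenase Mmp14 (-1.39 ± 0.13), whereas the inhibitors Timp1 and Timp2 had differences of -0.10 ± 0.21 and -0.32 and were not called. Of 10 receptor genes 4 were tested. The collagen receptor kinase gene Ddr1 and the integrin chain Itgb1 (-0.42 ± 0.13) were lower, while Ddr2 had -0.38 ± 0.16 and was not called (edgeR adjusted p = 0.0723). Ddr1 reached the minimum in 1 of the 4 Hmga2-only sums, so its difference is not given. Of 15 partners in the basement membrane 6 were tested and 5 were lower, among them the perlecan gene Hspg2 (-1.14 ± 0.13) and the laminin chains Lamc1 (-0.99 ± 0.15) and Lamb1 (-0.69). Of 12 fibril-binding genes 7 were tested and 6 were lower. Lum, Aspn and Thbs2 had 0 UMIs in Hmga2-only cells and passed the filter through the Dcn-only sums alone. The others called lower included fibronectin, Fn1 (-2.41 ± 0.20), and biglycan, Bgn (-1.23 ± 0.14), while Thbs1 had -0.70 and was not called. Among genes that reached the minimum in all 8 sums, 11 of 14, 4 of 5, 4 of 7, 1 of 2, 4 of 4 and 3 of 4 of the lists, in the order given, were lower, beside 16.5% of all such genes. Their medians were -0.81, -1.66, -0.84, -0.40, -1.07 and -1.75, beside 0.005. With double-positive cells counted as Hmga2-positive and Dpt-positive cells left out, the counts were 12 of 17, 4 of 6, 4 of 7, 1 of 5, 6 of 7 and 6 of 6, beside 19.7% of all such genes, and Adamts14 and Timp1 were among the genes called higher. The receptors' 1 of 5 was thus near that of all genes.

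Within the Dcn-only class a small group of cells with Dpt held an outsized share of the UMIs of some collagen genes. This split was made after the values were seen, so it is given as a description. A Dpt UMI was found in 11 of 45, 1 of 68, 4 of 110 and 6 of 78 Dcn-only cells, and further in 2 of 902 double-positive, 0 of 57 Hmga2-only and 6 of 14495 other cells. The 22 Dpt-positive cells were 7.31% of the class and held 5.12% of its UMIs, but 19.9% of its collagen UMIs. Collagen took a median of 3.72% of their UMIs, against 0.829% in the 279 Dpt-negative cells. Their median depth was 17687.5 UMIs against 30838, and 11 of the 22 had a Ptprc UMI.

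The Dpt-positive cells held 95.4% of the Col14a1, 99.4% of the Col12a1 and 97.2% of the Col15a1 UMIs of the Dcn-only class. They held 42.3% of its Col1a2, 28.7% of its Col1a1 and 21.3% of its Col3a1 UMIs. Of Col6a1 they held 3.96%, of Col4a1 4.49% and of Col18a1 1.34%, below or near their 5.12% of all UMIs. Col14a1 was found in 18 of the 22 cells and in 10 of the 279. The tumor-like marker Tm4sf1 was found in 17 of the 22, with 1.36% of its UMIs there.

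Type I balance also differed between the sums of these cells. Summed per library, there were 0.788 to 1.02 Col1a1 UMIs for each Col1a2 UMI in Dpt-positive cells and 1.59 to 1.91 in Dpt-negative cells. These sums did not overlap, but Ac had only 1 Dpt-positive cell. Of 4258 Col1a1 UMIs in Dpt-positive cells, 1 cell of IgG held 877 and 1 of aC+C held 996. Single cells did overlap. For example, 1 Dpt-negative cell of IgG had 34 Col1a1 and 48 Col1a2 UMIs, and 1 Dpt-positive cell of C had 5 and 2. The median cell had 7811 Col1a2 CPM when Dpt-positive and 577 when Dpt-negative.

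**Figure D3:**
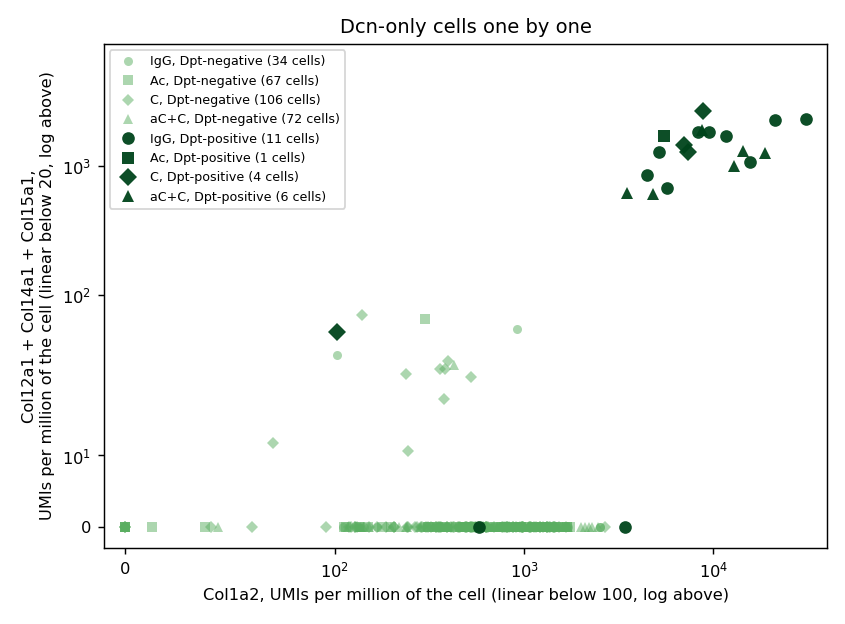
Col1a2 (horizontal axis) against the sum of Col12a1, Col14a1 and Col15a1 (vertical axis), both in CPM of the cell, for each of the 301 Dcn-only cells; dark points are the 22 Dpt-positive cells and shapes are libraries. Most Dpt-positive cells lie in the upper right, and most of the 279 Dpt-negative cells lie at 0 on the vertical axis.

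How the groups compared could only be described, since each group is 1 library: the comparisons of Ac, C and aC+C share the IgG library, and none has a replicate check. Ratios are of CPM of a class, with exact conditional binomial 95% intervals. Summed over all 44 genes, the collagen level of Dcn-only cells relative to IgG was 0.498 (0.489 to 0.508) for Ac, 0.432 (0.425 to 0.44) for C and 0.624 (0.613 to 0.635) for aC+C. Without the Dpt-positive cells, which make up more of the class in IgG than in the other libraries, the ratios were 0.745 (0.728 to 0.763), 0.616 (0.603 to 0.63) and 0.762 (0.745 to 0.779). In double-positive cells they were 0.779 (0.768 to 0.791), 0.789 (0.778 to 0.8) and 0.591 (0.584 to 0.599). In Hmga2-only cells, 7 to 21 to a library, collagen stood at 1688, 1748, 1409.5 and 1344 CPM, and Ac was not below IgG.

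Counts past 2-fold were taken where a gene had 100 UMIs or more in the 2 libraries together. In Dcn-only cells 5 of 14 members were at least 2 times lower in Ac than in IgG and 0 higher, beside 2.91% and 1.25% of all genes. In C 7 of 15 were lower and 0 higher, beside 2.48% and 2.75%. In aC+C 3 of 17 were lower and 1, Col8a1, was higher, beside 2.65% and 0.936%. The median ratio of the members was 0.628, 0.512 and 0.761 against 1.03, 1.03 and 1.01 over all genes. Without the Dpt-positive cells, 0 of 13 members passed 2-fold in either direction in any comparison, beside 1.58% of genes higher and 0.619% lower for Ac, 3.83% and 0.598% for C, and 0.972% and 0.928% for aC+C, and the median ratio of the members was 0.800, 0.690 and 0.820.

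In double-positive cells 0 of 16 members passed 2-fold in Ac, beside 0.351% of genes higher and 1.5% lower, and 0 of 16 in C, beside 2.07% and 0.143%. In aC+C 3 of 17 were lower (Col3a1, Col5a2 and Col6a2) and 0 higher, beside 2.18% and 0.923%. Col3a1 there was 0.467 times its level in IgG, Col5a2 0.496 times and Col6a2 0.463 times, and Col6a1 lay just short of 2-fold at 0.5004 times. Col4a1 and Col18a1 stayed nearer to 1, at 0.989 (0.939 to 1.04) and 0.862 (0.81 to 0.917).

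The genes differed in how far the Dpt-positive cells moved them. For Ac, C and aC+C in turn, Col1a2 in Dcn-only cells was 0.267 (0.251 to 0.284), 0.246 (0.234 to 0.259) and 0.498 (0.475 to 0.522) times its IgG level, and 0.777, 0.644 and 0.820 times among Dpt-negative cells. Col14a1 was 0.0591, 0.0701 and 0.139 times its IgG level in Dcn-only cells, where IgG had 232 UMIs and the other libraries 24, 49 and 66. Among Dpt-negative cells it had 3 UMIs in IgG and 1 to 10 in the others, too few for a ratio to be read. Col18a1 was 1.10 (0.907 to 1.33), 1.15 (0.969 to 1.38) and 1.04 (0.864 to 1.26) times its IgG level in Dcn-only cells, with intervals that include 1 in all 3.

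**Figure D4:**
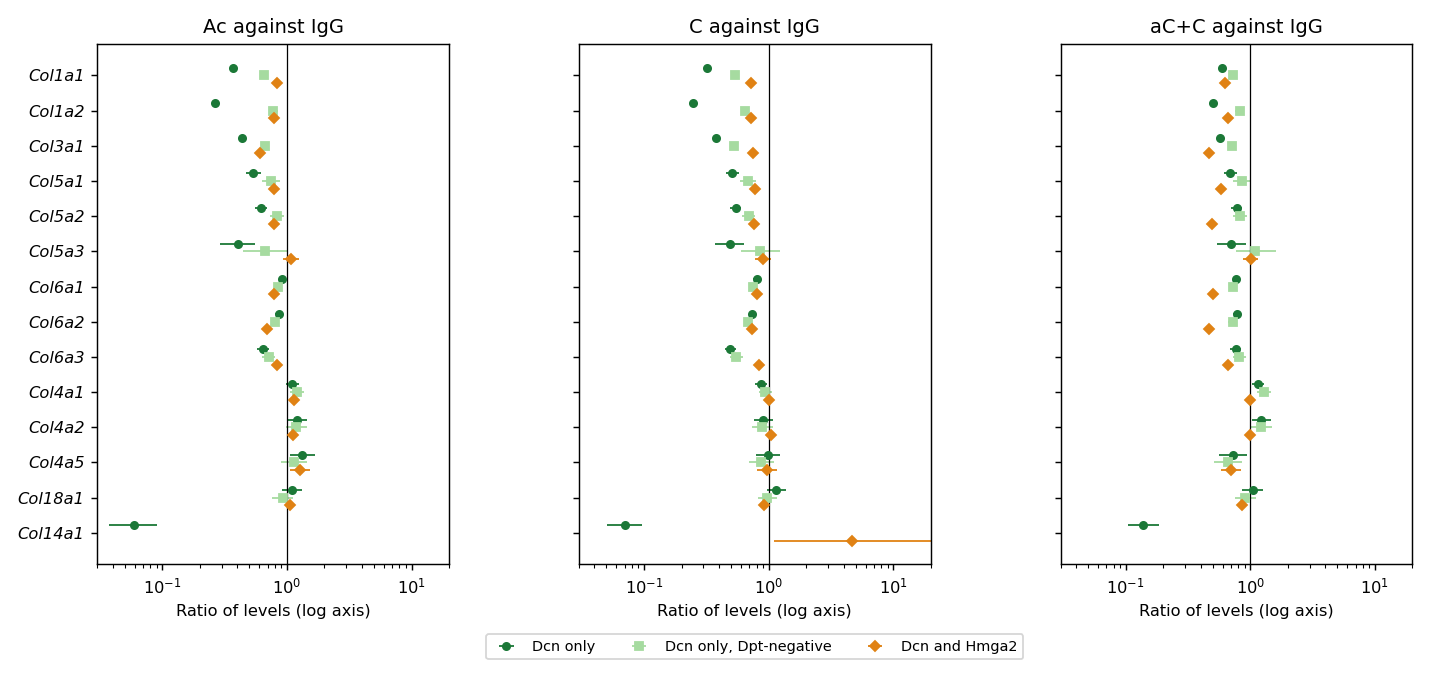
Ratio of the level in Ac, C or aC+C to that in IgG (horizontal axis, log scale; the line marks 1) for 14 collagen genes in all Dcn-only cells, in Dpt-negative Dcn-only cells and in double-positive cells; bars are 95% intervals for counting error, cut at the frame, and pairs with under 20 UMIs are left out. Type I and III genes move toward 1 when the Dpt-positive cells are left out, while Col4a1, Col4a2 and Col18a1 lie near 1 throughout.

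The other cells, mostly leukocytes, showed collagen transcripts at the level of traces. In barcodes of 1 to 50 UMIs, which sample free RNA, collagen stood at 832, 811, 894 and 1160 CPM. In all other cells it stood at 24.8, 25.5, 42.2 and 46.4, or 2.97%, 3.14%, 4.72% and 3.9999% of that level. In T-like cells, with at least 3 UMIs of the CD3 genes, the percentages were 2.85, 1.68, 2.42 and 1.94. Col1a1 stood at 0.921% of its level in free RNA in T-like cells, Col3a1 at 1.14% and Col6a1 at 1.31%. After each cell was thinned to 1000 UMIs, 0.206% to 0.833% of T-like cells had a Col3a1 UMI against 73.5% to 84.4% of Dcn-only cells (unthinned 2.22% to 4.87% and 95.6% to 99.1%).

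Col14a1 stood above its level in free RNA in Csf1r-positive cells. In these cells, with at least 2 UMIs of the macrophage receptor gene Csf1r and no CD3 UMI, it stood at 11.04 (exact Poisson interval 8.3 to 14.4), 22.7 (19.9999 to 25.6), 14.5 (12.4 to 17.0) and 15.3 CPM (13.2 to 17.6). In T-like cells it stood at 0.077 to 0.22. Its level in Csf1r-positive cells was 212%, 329%, 239% and 375% of that in free RNA, which held 11 to 21 Col14a1 UMIs in a library. With the 4 libraries pooled it was 297%, against 2.72% in T-like cells, while Col1a1 and Col3a1 in the same Csf1r-positive cells stood at 2.21% and 1.85% of theirs. A Col14a1 UMI was found in 28, 139, 94 and 116 Csf1r-positive cells, with at most 7 UMIs in any cell.

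Among Csf1r-positive cells the Col14a1 UMIs lay in those with the complement gene C1qa, a marker of tissue macrophages. With at least 10 C1qa UMIs the level was 17.5, 31.0, 22.3 and 22.9 CPM, and with fewer it was 1.52, 0.932, 0.524 and 1.13. The cells with more C1qa were deeper, with median UMIs of 13223 to 16364 against 8184 to 9448. This split was made after the values were seen and has no test. In Csf1r-positive cells with a Col14a1 UMI the monocyte gene Ly6c2 stood at 26.0 to 78.9 CPM, against 711 to 1144 in those without.

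**Figure D5:**
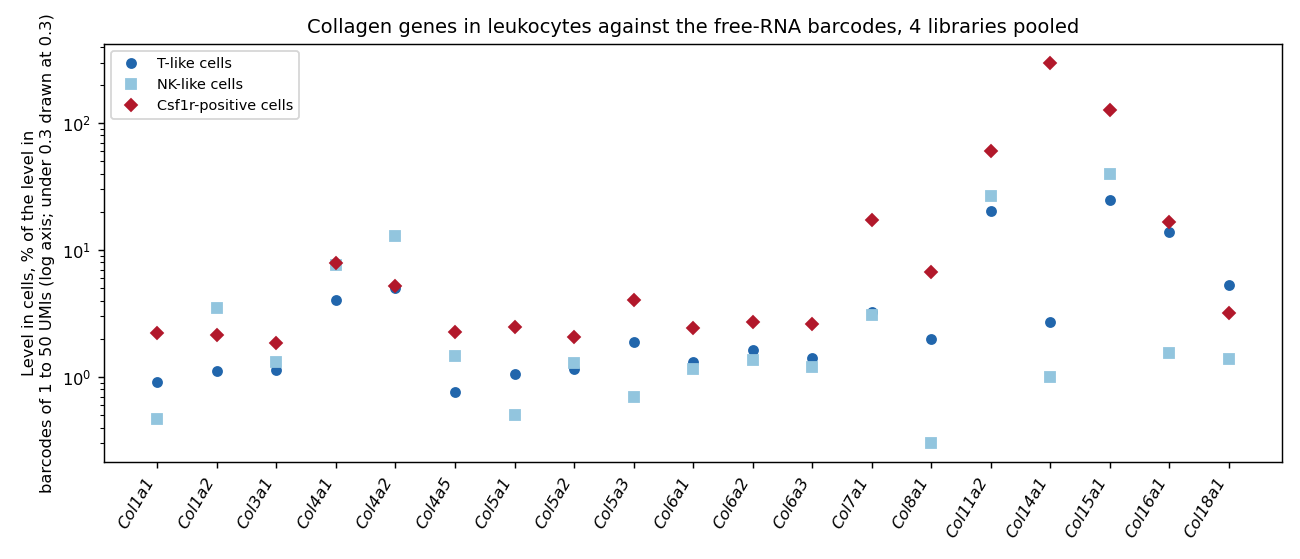
Level of 19 collagen genes in T-like, NK-like and Csf1r-positive cells, 4 libraries pooled, as a percent of the level in barcodes of 1 to 50 UMIs (vertical axis, log scale; values under 0.3 are drawn at 0.3). Genes of types I, III and VI lie at a few percent or less in all 3 groups, and Col14a1 in Csf1r-positive cells lies at 297%.

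Endothelial-like cells, with at least 3 of 8 endothelial markers and no Ptprc UMI, numbered 1 in C and 1 in aC+C, and no mural-like cell was found. With 1 cell in each of 2 libraries they are single observations. The cell of C held 184 UMIs of Col4a1, 122 of Col4a2, 54 of Col15a1 and 22 of Col18a1, and that of aC+C held 228, 142, 59 and 76. Both held 0 of Col1a1. As CPM these were 3252 and 3326 of Col4a1, above every class and library of the other cells described.

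Traces of Col4a1 in lymphocytes came from few cells. In T-like cells of IgG 92% of 125 Col4a1 UMIs lay in 1 cell, and in NK-like cells of C 93.1% of 72 UMIs did. In T-like cells of Ac, where no such cell was found, there were 5 UMIs in 1941 cells. A level in lymphocytes of 1 library can therefore be that of a single barcode.

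Col4a4 and Col23a1 were named for their levels in T-like cells, which were low. Col4a4, another type IV chain, stood at 0.67 to 0.88 CPM in T-like cells of the 4 libraries, 64 UMIs in all and at most 2 in any cell. Its level in Dcn-only cells of the pooled libraries was 0.49 CPM, and all 3 classes with Dcn or Hmga2 together held only 15 Col4a4 UMIs. Whether these levels differ beyond counting error was not tested. Col23a1, a transmembrane collagen, stood at 4.44 to 7.30 CPM in cells with at least 2 UMIs of the dendritic cell receptor gene Flt3 and at 0.6 to 1.07 in T-like cells, and had 0 UMIs in Dcn-only cells. Its 29 UMIs in Flt3-positive cells were spread over the libraries as 8, 8, 8 and 5. Col15a1, a chain of vessel basement membranes, was named for its level in the 2 endothelial-like cells, whose UMIs are given above. It stood at 1.43 to 3.29 CPM in Csf1r-positive cells and at 25.4, 0, 1.78 and 11.6 in Dcn-only cells.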

How the data were processed

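The deposited files hold unnormalized UMI counts for every listed barcode, beside lists of gene and barcode names. Per the submitters' processing notes, Cell Ranger 2.1.1 and mm10 were used, whereas the matrix headers name 3.0.2; the aligner's settings were not stated. Members, gene lists, thresholds and tests were chosen with earlier results of these data known. Named were genes with at least 200 UMIs over the 3 classes, and those with at least 50 UMIs and a higher level than Dcn-only cells in a group of other cells. Counts were summed per class and library. Classes were compared with edgeR 4.0.16 (quasi-likelihood, TMM, filterByExpr, library as block, Benjamini-Hochberg adjustment over all genes, threshold 0.05) after being tested on simulated data. In that simulation, which used a fixed dispersion, 94 of 99 changes of 4-fold but only 17 of 96 of 2-fold were recovered. Of its 117 calls 6 were false. The block follows from the design, since both classes of a library come from 1 capture. DESeq2 1.42.0 was an alternative. Libraries were compared without a test. Positions are those of GENCODE genes matched by gene ID on GRCm38. Splits by Dpt and C1qa, and counting double-positive cells as Hmga2-positive, were added after the data were seen. Doublets were not called; cells with Ptprc were left out as an alternative.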

Additional observations from a re-analysis of the deposited data

Results flagged for a closer look

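Col14a1 in C against IgG was flagged because its ratios lay on opposite sides of 1 in 2 classes of cells. It was 0.0701 times as high in Dcn-only cells (0.0504 to 0.0957; 49 UMIs against 232) and 4.63 times as high in double-positive cells (1.11 to 41.2; 18 UMIs against 2). The 2 UMIs of IgG are too few for a direction to be read in double-positive cells. The difference between the classes was not tested, since each group is 1 library. The part of the Dpt-positive cells, 11 in IgG and 4 in C, and of free RNA was not tested.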

How the results depend on the processing

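For Hmga2-only against Dcn-only cells, 12 to 18 members were lower over all alternatives (14 in the report); leaving out each library in turn gave 13 to 15 lower and 1 higher. Without the replicate block 13 were lower and 1 higher, with Col8a1 no longer called (edgeR adjusted p = 0.1). DESeq2 gave 14 and 1. Shares over all genes are not given here for these alternatives, so the counts show only how the calls of the members moved. Counting double-positive cells as Dcn-positive gave 0 higher; the cause was not tested. Of 285 log2 differences of single genes under alternatives, 278 kept direction and call. Col5a3 changed sign, to 0.033 without Dpt-positive cells and to 0.088 with double-positive cells also counted as Hmga2-positive.

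Ratios to IgG are given for Ac, C and aC+C in turn. In Dcn-only cells they were 0.4017, 0.3713 and 0.5721 with a mitochondrial maximum of 5%, 0.6105, 0.4832 and 0.6938 with Hmga2 of at least 3, 0.4741, 0.5014 and 0.5213 without cells with Ptprc, 0.6773, 0.6855 and 0.5429 with double-positive cells counted as Dcn-positive, 0.745, 0.6164 and 0.7619 without Dpt-positive cells, and 0.7979, 0.6873 and 0.7953 without Col1a1, Col1a2 and Col3a1. With Dcn of at least 10 they were 0.4154 for C and 0.5993 for aC+C. In double-positive cells they were 0.8617, 0.8384 and 0.6376 without Col1a1, Col1a2 and Col3a1. There Ac gave 0.8095 at 5% mitochondrial and 0.7595 at Hmga2 of at least 3, C gave 0.8074 at Dcn of at least 10 and 0.9127 without Ptprc, and aC+C gave 0.6243 at 5% mitochondrial and 0.6025 without Ptprc. The cause of each shift was not tested.

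Counts of lower members in Dcn-only cells went to 1 for Ac and 1 for C with double-positive cells counted as Dcn-positive, and to 0 in all 3 comparisons without Dpt-positive cells. At a fold of 1.5 they were 8 for Ac and 5 for aC+C, and without Ptprc 5 for aC+C. The 1 higher member in aC+C went to 0 under each of the Ptprc, Dpt and double-positive alternatives. In double-positive cells a fold of 1.5 gave 1 for Ac and 8 for aC+C. Shares over all genes at a fold of 1.5, and for the Ptprc and double-positive alternatives, are not given here. These counts are thus not read as a result about the members.

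Shares of Dcn-only cells were 4.831%, 5.933%, 8.527% and 10.76% (IgG, Ac, C, aC+C) when double-positive cells were included, 3.325% for C at Hmga2 of at least 3, and 1.766% for C and 1.448% for aC+C without Ptprc. Double-positive shares were 2.482%, 3.104%, 2.836% and 6.148% without Ptprc, and 5.202% for C at Hmga2 of at least 3. Hmga2-only shares were 0.5214%, 0.7838% and 1.152% for Ac, C and aC+C at Dcn of at least 10, and 0.02488% for C without Ptprc. Few UMIs limit Col14a1, Col15a1 and Col16a1 outside Dcn-only cells.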
